A study of Zea mays with 19 samples.

Results

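The comparison set the maize inbred line Yu537A, which germinates late, against the inbred line Yu82, which germinates early, both at 53 h after imbibition. Its members were the 6 small RNA libraries that the labels place in these groups, out of 19 libraries in all: 3 of Yu537A at 53 h without the gibberellin treatment of the series, and 3 of Yu82 at 53 h. The embryos of 5 seeds were pooled in each library, both lines derive from the population Yuzong5, and no mutant allele or transgene is labelled in either line. One label states that Yu537A seeds were pretreated with gibberellin (GA3, 400 mg/L) and does not say in which groups; the series design names treatment for 1 other group, and the late line at 53 h was taken as untreated on that basis. The lines differ in their genome and in the timing of germination, and the effects of these cannot be told apart here. Other libraries covered the early line at 6 h, the late line at 6 h and 78 h, the late line with GA3 at 53 h, and 1 degradome library with no group.

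MicroRNAs (miRNAs) are short RNAs cut from a hairpin precursor, loaded into an Argonaute protein and used to find messenger RNAs, which in plants are usually cleaved at the paired site. The base-paired arms of a hairpin are called 5p and 3p, and often only 1 of them accumulates. In seeds and seedlings, miR159 limits GAMYB transcription factors that act in gibberellin signalling, miR393 limits auxin receptors, and miR397, miR398, miR408 and miR528 target messenger RNAs of copper proteins, among them laccases, superoxide dismutase and plantacyanins.

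Of 527 sequences, 224 had enough counts to be tested, and 15 of them stood higher and 9 stood lower in the late line at 53 h (edgeR quasi-likelihood test, Benjamini-Hochberg adjusted p under 0.05). This is 6.7% and 4.02% of the sequences tested, while 93 (41.5%) had an unadjusted p under 0.05. The 15 sequences that were higher are printed here because each carries a called difference. Each runs 5′ to 3′ with T for U, as deposited, and the capitals mark the seed, bases 2 to 8.
zma-MIR397b-p5: tTGAGCGCagcgttgatgagc
zma-MIR397b-p3: tCACCAGCgctgcactcaatt
zma-miR397a-5p: tCATTGAGcgcagcgttgatg
zma-miR398a-3p: tGTGTTCTcaggtcgcccccg
zma-miR408a_L-1: tGCACTGCctcttccctggc
mtr-miR408-3p_L-1R+2: tGCACTGCctcttccctggctt
zma-MIR408a-p5: aCAGGGATgagacagagcatg
zma-miR528a-5p: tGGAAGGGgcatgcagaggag
zma-miR528a-3p_L+1: tCCTGTGCctgcctcttccatt
zma-miR393a-5p_R-1: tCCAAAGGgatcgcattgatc
zma-miR393a-3p_L-1: tCAGTGCAatccctttggaat
zma-miR827-3p: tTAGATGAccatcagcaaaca
zma-miR169o-5p_R-1: tAGCCAAGaatgacttgcct
osa-miR166m_R-2_1ss19CT: tCGGACCAggcttcattct
PC-5p-5182_671: cTTCCGACtcaacacgattcgt
The names are the authors'. The prefix names the species of the matching miRBase entry (zma is maize), L and R give bases lost or gained at the left and right end against it, and PC marks a candidate without a miRBase name. The 2 miR408 forms share the seed and their first 20 bases. zma-miR397a-5p and zma-MIR397b-p5 are placed on precursors of chromosomes 3 and 5. They share a run of 18 bases, offset by 3, so that their seeds differ. The MIR397b precursor of chromosome 5 also holds all 21 bases of zma-miR397a-5p. The counts of zma-miR397a-5p therefore cannot be assigned to chromosome 3 alone.

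The 9 sequences that were lower in the late line are printed for the same reason.
zma-miR159a-3p: tTTGGATTgaagggagctctg
zma-miR159c-3p_L-1R-1: tTGGATTGaagggagctcc
zma-MIR319b-p5: aGCTGCCGactcattcaccca
zma-miR2118b: tTCCCGATgcctcccattccta
bdi-MIR444d-p5_1ss2GA: cAGCAAGCtagaggcagcaac
bdi-MIR169c-p3_2ss14TC18GC: cCTAGTTCtcttcctctcgtg
PC-3p-12284_291: aGCCCCTTcaaccccttcggt
PC-5p-18068_190: tTAAATCTcctccgggattcc
PC-3p-23456_139: aCACGGTGgcaagatcacgtc
The miR159 forms match at 18 of 19 aligned bases, and their starts lie 1 base apart, which shifts the seed. None of the 9 shares a seed with a sequence that was higher.

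Totals at 53 h were 818814, 389074 and 99076 counts in the late line and 124321, 170524 and 42963 in the early line, with 378, 232 and 110 sequences listed in the late libraries and 175, 199 and 130 in the early ones. The 6 libraries separated by line on the first principal component, which held 56.2% of the variance, and early replicate 2 lay nearest to the late libraries. Within each line the order on this component also followed the totals, and early replicate 2 had the largest total of the early libraries. Levels are CPM, counts scaled to 1000000 on totals scaled by TMM, and a sequence can exceed that scale where the scaling factor is small. Of 430 sequences with whole values throughout, 419 had no listed value below 8 counts, and 210 of their values were 8, so that a sequence listed at 0 was not shown to be absent. A fold against 3 libraries at 0 was set against 8 counts in each and is written as a lower bound.

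The copper-protein miRNA families held 9 of the 15 sequences called higher and none of those called lower. This list was chosen with earlier results of these data known, and its sequences are not separate cases. Among the 9 are both arms of the MIR397b and MIR528b hairpins, and miR408 forms that share most of their bases. Of 18 sequences of miR397, miR398, miR408 and miR528, 15 could be tested, 9 were higher in the late line, 0 were lower and 6 did not pass. The late libraries lay above all early libraries for 11 of the 15, against 18.8% of all sequences tested. The median log2 fold change of the 15 was 3.82, or 2.36 with sequences listed at 0 in 1 line set at their bound, against 0.17 and 0 over all 224. Together these families held 11.4%, 14.5% and 16.0% of the counts in the late libraries and 1.06%, 3.57% and 1.60% in the early libraries. The 9 calls came down to 4 without early replicate 1, 4 without early replicate 3 and 5 without late replicate 3, and to 5 with scaling by library totals.

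Both arms of the MIR397b hairpin were among the most abundant of these. zma-MIR397b-p5, the arm that carries the miR397 sequence aimed at laccases, had 75837, 60820 and 53485 CPM in late-line libraries, against 708, 4123 and 963 CPM in early-line libraries. The groups lay far apart, although early replicate 2 was several times the other early libraries. The log2 fold change was 5.03 ± 0.74 (SE), a 32.8-fold higher level in the late line (edgeR adjusted p = 0.000723). The opposite arm, zma-MIR397b-p3, had 15818, 12970 and 9987 CPM in late-line libraries and 183, 1054 and 210 CPM in early-line libraries. The log2 fold change of this arm was 4.73 ± 0.75 (edgeR adjusted p = 0.000968). The arms moved together: the summed 5p counts were 4.80 times the 3p counts in late-line libraries and 3.95 times in early-line libraries. The precursor, from chromosome 5, 84610591 to 84610674 on the minus strand (no source used here names the build), is shown with both detected arms in capitals.
zma-MIR397b precursor: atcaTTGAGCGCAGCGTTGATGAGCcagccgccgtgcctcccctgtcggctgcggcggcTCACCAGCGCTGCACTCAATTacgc
The third called member, zma-miR397a-5p, had 195, 286 and 160 CPM in late-line libraries and was listed at 0 in the 3 early-line libraries, at least 3.93-fold higher (edgeR adjusted p = 0.00201). It was listed in 12 of 12 late-line libraries of the series and 0 of 6 early-line libraries. In counts at 53 h it had 99, 96 and 16 in late-line libraries, where zma-MIR397b-p5 had 38532, 20436 and 5334. In early-line libraries zma-MIR397b-p5 had 151, 888 and 87 counts. All bases of zma-miR397a-5p also occur in the precursor above, and a difference of it apart from zma-MIR397b-p5 was not tested.

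The miR408 family, which targets plantacyanins and other copper proteins, behaved in the same direction. zma-miR408a_L-1 had 64672, 49275 and 61978 CPM in late-line libraries, against 2536, 13426 and 3275 CPM in early-line libraries, a log2 fold change of 3.19 ± 0.77 (edgeR adjusted p = 0.0133). No late library fell to the level of early replicate 2, the highest of the early ones. The longer form mtr-miR408-3p_L-1R+2 had 1305, 836 and 812 CPM in late-line libraries and 0, 195 and 0 CPM in early-line libraries (edgeR adjusted p = 0.0334). The call of this form was lost in 8 of 16 alternatives. The 5p side, zma-MIR408a-p5, stood at 177, 104 and 100 CPM in late-line libraries and at 0 in the 3 early-line libraries, at least 2.34-fold higher (edgeR adjusted p = 0.00286). Like zma-miR397a-5p, it was listed in 12 of 12 late-line and 0 of 6 early-line libraries over all times, and these 2 were the only sequences of the table with that pattern. In late-line libraries at 53 h it had 90, 35 and 10 counts, where zma-miR408a_L-1 had 32859, 16557 and 6181. The early-line libraries had 541, 2892 and 296 counts of zma-miR408a_L-1. A difference of zma-MIR408a-p5 apart from zma-miR408a_L-1 was not tested. The zma-MIR408a-p5 precursor lies on chromosome 3, 58127890 to 58128080, minus strand, and carries both called arms, in capitals.
zma-MIR408a precursor: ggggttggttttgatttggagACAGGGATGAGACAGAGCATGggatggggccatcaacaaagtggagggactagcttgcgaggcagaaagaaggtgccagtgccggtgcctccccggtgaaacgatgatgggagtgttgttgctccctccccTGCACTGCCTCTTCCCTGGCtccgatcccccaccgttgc

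miR528, a family of grasses and other monocots, was also higher on both arms. zma-miR528a-5p had 18727, 35377 and 25269 CPM in late-line libraries, against 2044, 6151 and 2235 CPM in early-line libraries, a log2 fold change of 2.93 ± 0.63 (edgeR adjusted p = 0.00659). The lowest late library was well above the highest early one. zma-miR528a-3p_L+1 had 679, 967 and 541 CPM in late-line libraries and 84.4, 288 and 44.3 CPM in early-line libraries (edgeR adjusted p = 0.0214). The call of this arm was lost in 8 of 16 alternatives. The short hairpin of chromosome 9, 156643654 to 156643731 on the minus strand, has these arms at its ends.
zma-MIR528b precursor: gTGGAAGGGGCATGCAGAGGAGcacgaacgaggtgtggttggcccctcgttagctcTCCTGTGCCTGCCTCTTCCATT
zma-miR398a-3p, from a family that targets copper/zinc superoxide dismutase, had 5647, 6875 and 6498 CPM in late-line libraries and 609, 2892 and 885 CPM in early-line libraries, a log2 fold change of 2.11 ± 0.55 (edgeR adjusted p = 0.0195). Early replicate 2 was again the highest of the early libraries, below every late one. The zma-miR398a-3p call was lost in 7 of 16 alternatives.

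**Figure D1:**
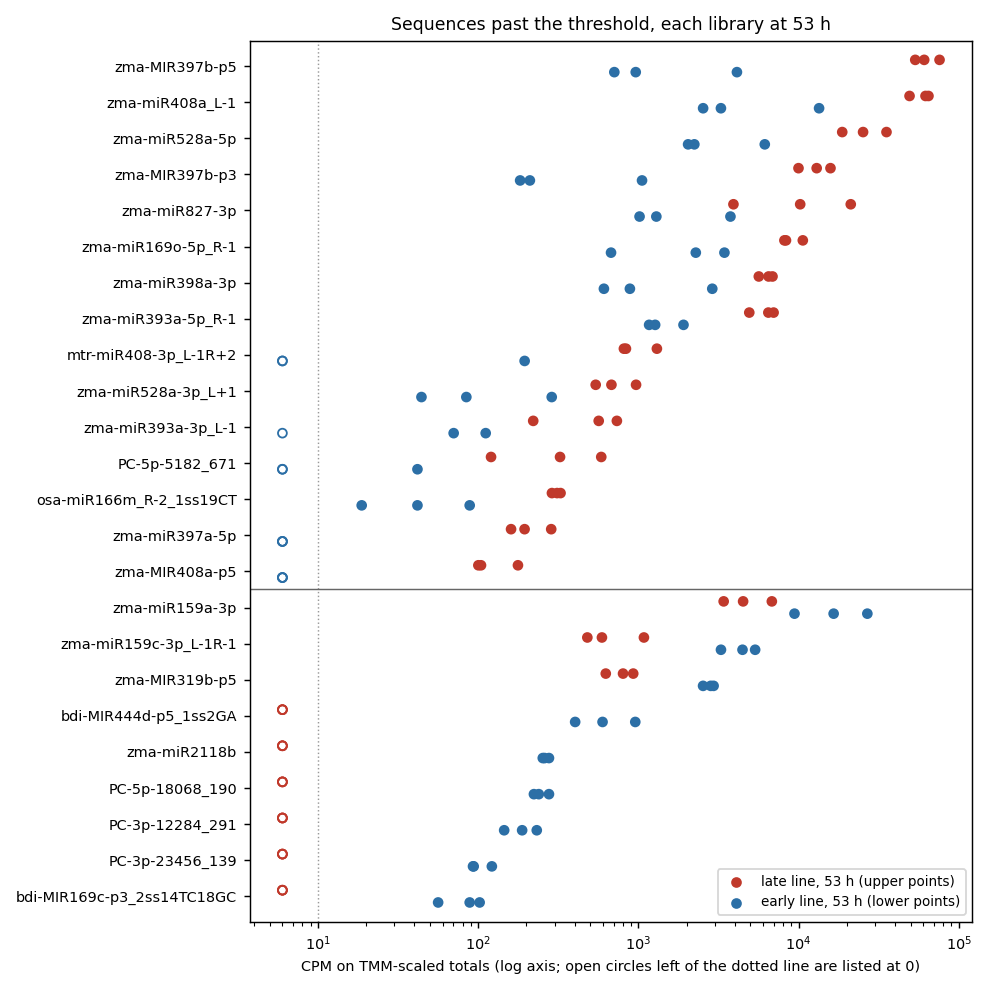
CPM of the 24 called sequences in each library at 53 h (log axis), with the late line as the upper and the early line as the lower points of each row; open circles are libraries listed at 0. The 3 late libraries lie above all early ones in the 15 upper rows and below them in the 9 lower rows.

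The auxin list (miR160, miR167, miR390 and miR393) had 15 tested sequences, of which 2 were higher, 0 were lower and 13 did not pass. Both calls were arms of miR393, which targets the TIR1 and AFB auxin receptors. zma-miR393a-5p_R-1 had 6983, 6476 and 4923 CPM in late-line libraries, against 1167, 1913 and 1273 CPM in early-line libraries, a log2 fold change of 2.08 ± 0.49 (edgeR adjusted p = 0.0133). The late libraries were well clear of the early ones. zma-miR393a-3p_L-1 had 734, 565 and 221 CPM in late-line libraries and 70.3, 111 and 0 CPM in early-line libraries (edgeR adjusted p = 0.0448), a call lost in 11 of 16 alternatives, with each of the 6 libraries left out among them. The most abundant member of the list, zma-miR160a-5p, which targets auxin response factors, overlapped between the lines, with 24378, 20726 and 17046 CPM in late-line libraries and 21144, 24350 and 22530 CPM in early-line libraries. Its log2 fold change was -0.13 ± 0.32 (edgeR adjusted p = 0.834). zma-miR390a-5p, which starts the trans-acting siRNAs that limit auxin response factors, averaged 649 ± 359 CPM in late-line and 1963 ± 621 CPM in early-line libraries (SD, n = 3 each) and did not pass (edgeR adjusted p = 0.0824).

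Other calls in the same direction came from single members of larger lists. zma-miR827-3p, which in grasses targets SPX-MFS phosphate transporters, had 21168, 10235 and 3921 CPM in late-line libraries and 1017, 3756 and 1295 CPM in early-line libraries, a log2 fold change of 2.54 ± 0.74 (edgeR adjusted p = 0.0334). The groups came close, since the lowest late library was little above the highest early one. The zma-miR827-3p call was lost in 7 of 16 alternatives. zma-miR169o-5p_R-1, which targets NF-YA transcription factors, had 8156, 10628 and 8343 CPM in late-line libraries and 2283, 3445 and 675 CPM in early-line libraries (log2 fold change 2.08 ± 0.58, edgeR adjusted p = 0.0277). The zma-miR169o-5p_R-1 call was lost in 6 of 16 alternatives. This sequence was 1 of 2 called among 17 tested miR169 sequences, and the other, bdi-MIR169c-p3_2ss14TC18GC, was lower. The latter had 12, 22 and 8 counts in early-line libraries and 0 in late-line libraries, at least 2.06-fold lower (edgeR adjusted p = 0.0448). Its call was lost in 8 of 16 alternatives, with each of the 6 libraries left out among them. The scarce osa-miR166m_R-2_1ss19CT had 327, 289 and 311 CPM in late-line and 18.7, 41.8 and 88.5 CPM in early-line libraries (edgeR adjusted p = 0.045). The early-line values were 4, 9 and 8 counts. This call was lost in 9 of 16 alternatives, with each of the 6 libraries left out among them. The main miR166 sequence, zma-miR166a-3p, aimed at HD-ZIP III transcription factors of leaf polarity and the meristem, had 1012060, 658514 and 585308 CPM in late-line libraries and 341443, 501464 and 228662 CPM in early-line libraries. Its log2 fold change of 1.07 ± 0.41 did not pass (edgeR adjusted p = 0.09), and as a share of the counts the miR166 family held 60.4% ± 3.01 in late-line and 58.3% ± 7.71 in early-line libraries (SD, n = 3 each; exact permutation p = 0.9).

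The miR159 family, which targets GAMYB transcription factors, was lower in the late line, while the miR319 family, which targets TCP genes, did not pass (log2 fold change 0.57 ± 0.36, edgeR adjusted p = 0.233). Of the 12 tested sequences of both 3 were lower, 0 were higher and 9 did not pass; the median log2 fold change was -1.28, against 0.17 over all 224. zma-miR159a-3p had 3407, 4506 and 6808 CPM in late-line libraries, against 16550, 9429 and 26868 CPM in early-line libraries, a log2 fold change of -1.84 ± 0.48 (edgeR adjusted p = 0.0201). All late libraries were below all early ones, among which replicate 2 was the lowest. zma-miR159c-3p_L-1R-1 had 480, 592 and 1083 CPM in late-line libraries and 4467, 3278 and 5356 CPM in early-line libraries, a log2 fold change of -2.61 ± 0.45 (edgeR adjusted p = 0.00157). All 9 tested miR159 sequences had a negative log2 fold change, from -2.61 to -0.28, and 2 of them passed.

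The 5p and 3p sequences of MIR319b did not give the same call, and the difference between them was not tested. The 5p sequence zma-MIR319b-p5 had 626, 929 and 802 CPM in late-line libraries and 2948, 2827 and 2534 CPM in early-line libraries, a log2 fold change of -1.82 ± 0.36 (edgeR adjusted p = 0.00312). The 3p sequence zma-miR319a-3p_R+1, the arm aimed at TCP genes, had 66978, 59867 and 43959 CPM in late-line libraries and 35880, 45372 and 24156 CPM in early-line libraries, overlapping between the lines. Its log2 fold change was 0.70 ± 0.37 (edgeR adjusted p = 0.166) and turned to -0.30 when scaled by library totals. The summed 5p counts were 0.0121 times the 3p counts in late-line libraries and 0.0748 times in early-line libraries. The 3p sequence is shared by 4 precursors and the 5p sequence by 2, so the ratio is not that of a single gene. In the precursor below, the 5p sequence lies inward of the stretch that can pair with the 3p sequence. The ratio is therefore not that of paired arms. The precursor from chromosome 3, 2038966 to 2039178 on the plus strand, shows both sequences in capitals.
zma-MIR319b precursor: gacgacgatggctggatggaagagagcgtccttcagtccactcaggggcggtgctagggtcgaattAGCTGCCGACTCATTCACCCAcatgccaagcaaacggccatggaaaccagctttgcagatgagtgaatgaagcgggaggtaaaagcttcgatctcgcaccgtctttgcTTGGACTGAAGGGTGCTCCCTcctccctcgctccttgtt

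**Figure D2:**
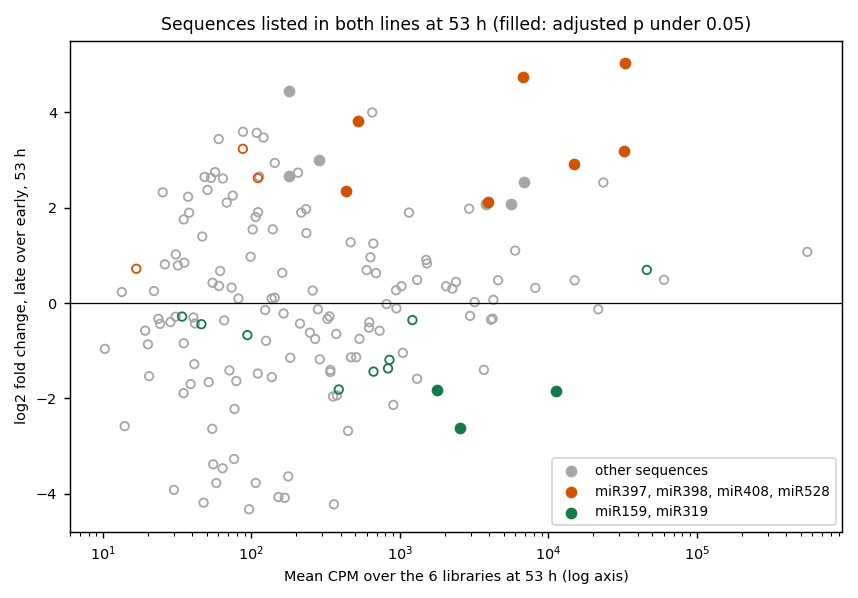
log2 fold change of the late over the early line against mean CPM of the 6 libraries (log axis), for the 163 tested sequences listed in both lines at 53 h; filled points have an adjusted p under 0.05. The called copper-protein miRNAs lie between 2.11 and 5.03, and the called miR159 and miR319 sequences between -2.61 and -1.82.

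Some sequences were listed in the early line alone. bdi-MIR444d-p5_1ss2GA had 0 counts in all 3 late-line libraries and had 403, 956 and 598 CPM in early-line libraries, at least 16.3-fold lower in the late line (edgeR adjusted p = 0.00182). It had 0 counts in the 12 late-line libraries of all groups and 54 to 206 counts in each of the 6 early-line libraries of both times. It was aligned with the reverse complement of osa-miR444b.1_L+1, a member of the grass family that targets MADS-box genes, and matched it at 17 of 20 bases. The abundant zma-miR444a had 89982, 67778 and 52833 CPM in late-line libraries and 53490, 63993 and 32677 CPM in early-line libraries, which overlapped (edgeR adjusted p = 0.337). The candidates PC-3p-12284_291, PC-5p-18068_190 and PC-3p-23456_139 shared the pattern of 0 of 12 late-line and 6 of 6 early-line libraries, and were at least 4.72-fold, 6.17-fold and 2.57-fold lower in the late line at 53 h (edgeR adjusted p = 0.0122, 0.0133 and 0.0262). These 4 were the only ones of the 527 sequences listed in no late-line and in every early-line library. The PC-3p-23456_139 call was lost in 6 of 16 alternatives. PC-3p-12284_291 and PC-3p-23456_139 each differ at 1 base from the deposited precursor they are placed on. Whether the lines differ in sequence at these places was not tested, and the bounds hold for the exact sequence listed.

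zma-miR2118b belongs to a family known as a trigger of phased siRNAs in anthers and was on the list of markers of another tissue (miR2118, miR2275 and miR482). It was listed at 0 in the 3 late-line libraries and had 253, 260 and 277 CPM in early-line libraries, at least 6.59-fold lower (edgeR adjusted p = 0.0193). The list had 5 members among the 527 sequences (4 of miR2118 and 1 of miR482, with none of miR2275), of which 3 were tested, 1 was lower and 2 did not pass. The summed level of the list was 0.00953% to 0.026% of the counts in late-line libraries and 0.0809% to 0.219% in early-line libraries. Most of it was osa-MIR2118e-p3_2ss13TA19CT, with 70, 63 and 14 counts in late-line libraries and 138, 82 and 69 in early-line libraries. Its precursor also carries mtr-MIR2592ay-p5_2ss6AG17CG, a sequence named after another family, and whether it is a miRNA precursor was not tested. The sum is therefore not a measure of zma-miR2118b. The part of other tissue in the line difference was not tested.

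At the level of families, 9 of 48 were higher in the late line and 1 was lower, 18.8% and 2.08% of those tested. The higher ones were miR397, miR528, miR408, miR393, miR398, miR827, miR396, miR399 and miR167, and the lower one was miR159. miR396, which targets growth-regulating factors, summed to 68200, 39639 and 37572 CPM in late-line libraries and 8202, 12233 and 11896 CPM in early-line libraries (log2 fold change 2.17 ± 0.73, edgeR adjusted p = 0.0469). The miR396 family call was lost in 7 of 16 alternatives. Its main sequence, printed with that of miR167 because these families passed without a called sequence, missed the threshold on its own (edgeR adjusted p = 0.0614).
zma-miR396a-5p: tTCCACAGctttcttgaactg
zma-miR167a-5p: tGAAGCTGccagcatgatcta
miR167, which targets other auxin response factors, summed to 12866, 6803 and 4131 CPM in late-line libraries and 1678, 2855 and 2600 CPM in early-line libraries (edgeR adjusted p = 0.0469). The miR167 family call was also lost in 7 of 16 alternatives, and its log2 fold change fell to 0.60 when scaled by library totals. The family calls of miR398 and miR827 were lost in 5 and 4 of 16. miR399, a phosphate-starvation family, had 199, 98.2 and 0 CPM in late-line libraries and 0 in all early-line libraries, so the groups overlapped at 0 (edgeR adjusted p = 0.0469), and its call was lost in 11 of 15 alternatives.

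**Figure D3:**
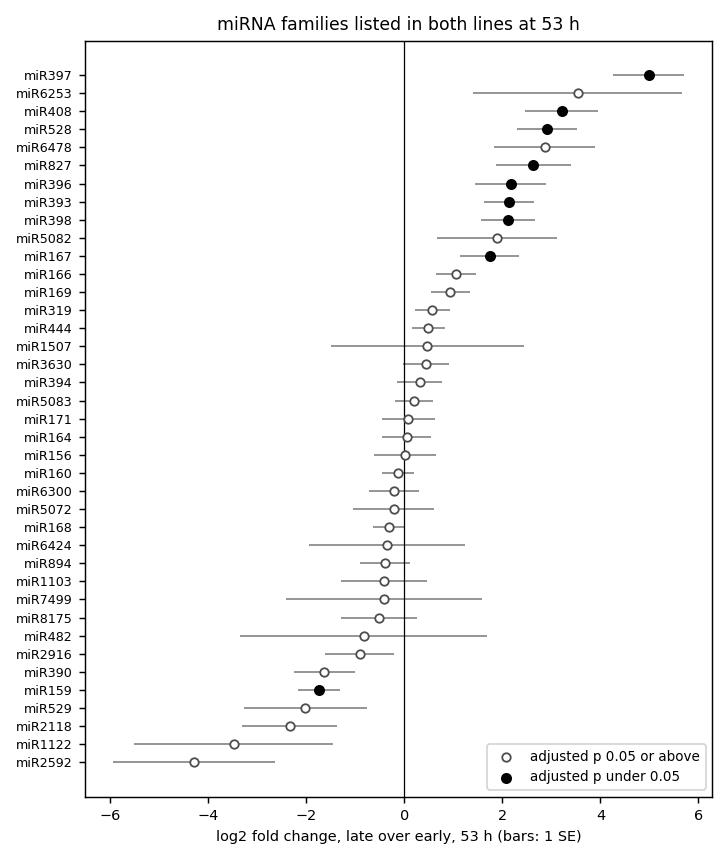
log2 fold change of the late over the early line at 53 h with 1 SE for the 39 tested families listed in both lines; filled points passed the threshold. miR397 lies highest at 4.98, and miR159 is the 1 filled point below 0, at -1.74.

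Of the remaining lists, phase change (miR156, miR157, miR529, miR172) had 0 calls among 8 tested sequences, the small RNA pathway (miR162, miR168) 0 of 4, the miR894 group 0 of 21 and the other named families 0 of 24. Meristem and growth (miR164, miR166, miR171, miR394, miR396) had 1 of 28 higher, miR444 1 of 6 lower, phosphate and sulphate 1 of 3 higher, and unnamed candidates 1 higher and 3 lower of 68. zma-miR156a-5p, which targets SPL transcription factors, had 9339, 4161 and 2497 CPM in late-line libraries and 2451, 2851 and 6197 CPM in early-line libraries, overlapping (edgeR adjusted p = 0.655). zma-miR168a-5p, which targets the messenger RNA of ARGONAUTE1, averaged 1526 ± 357 CPM in late-line and 1087 ± 395 CPM in early-line libraries (SD, n = 3 each; edgeR adjusted p = 0.289). zma-miR827-5p_L+1 had 2582, 875 and 231 CPM in late-line libraries and 79.7, 139 and 0 CPM in early-line libraries, without passing (edgeR adjusted p = 0.0717).

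As shares of the counts, miR397 held 6.17% ± 0.403 in late-line and 0.351% ± 0.266 in early-line libraries, and miR159 held 0.681% ± 0.317 in late-line and 4.77% ± 2.98 in early-line libraries (SD, n = 3 each). miR444 held 7.22% ± 0.253 in late-line and 10.5% ± 0.933 in early-line libraries, and miR160 held 1.58% to 1.90% in late-line and 3.24% to 4.93% in early-line libraries. For 13 of the 22 shares tested the groups did not overlap, which gives the smallest p that 3 against 3 libraries allow (exact two-sided permutation p = 0.1, adjusted 0.169). The lower shares of miR444 and miR160 stood beside CPM of zma-miR444a and zma-miR160a-5p that overlapped between the lines. Sequences of 18 and 19 nt and the miR894 group (miR894, miR2916, miR5083 and miR6300) were not tested as shares: the first held 0.648% to 1.39% in late-line and 1.66% to 4.93% in early-line libraries, the second 0.747% to 2.29% in late-line and 2.21% to 5.97% in early-line libraries. Their part in the line difference was not tested.

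**Figure D4:**
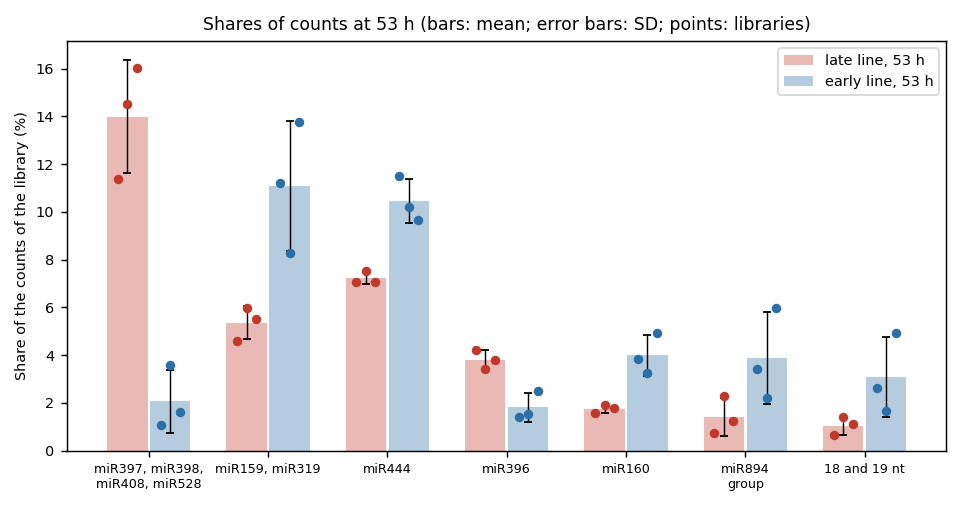
Share of the counts of each library at 53 h, with the late line left of the early line; bars are means, error bars SD, points the 3 libraries. The copper-protein miRNAs reach 11.4% to 16.0% in the late line and 1.06% to 3.57% in the early line.

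The line difference was also present at 6 h after imbibition, in libraries outside the groups compared at 53 h. Those libraries entered the same filter, scaling and fit as the 53 h libraries, so the 6 h result is not a separate analysis. At 6 h, 6 sequences passed with a higher and 9 with a lower level in the late line, 2.68% and 4.02% of the 224. All 6 of the higher ones were among the 15 of 53 h (100% of the 6 h list and 40% of the 53 h list): both MIR397b arms, zma-miR397a-5p, zma-miR408a_L-1, zma-MIR408a-p5 and zma-miR528a-5p. Of the lower ones 7 were called at both times, 77.8% of each list, zma-MIR319b-p5 and zma-miR159c-3p_L-1R-1 among them. zma-MIR397b-p5 averaged 75792 ± 31374 CPM in late-line and 4597 ± 2695 CPM in early-line libraries at 6 h (SD, n = 3 each), a log2 fold change of 4.04 against 5.03 at 53 h. The change of the line difference between the times was 0.99 ± 0.88 on the log2 scale for this sequence (edgeR adjusted p = 0.963).

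No sequence passed the test of that change: 0 of 224 in edgeR, with 17 at an unadjusted p under 0.05 (7.59%), and 0 in DESeq2 and in limma voom. zma-miR159a-3p had a log2 fold change of -0.79 at 6 h and -1.84 at 53 h, and zma-miR827-3p had 0.94 at 6 h and 2.54 at 53 h, but neither change passed (edgeR adjusted p = 0.819 for both). For zma-MIR319b-p5 the log2 fold change was -3.02 at 6 h and -1.82 at 53 h (edgeR adjusted p of the change = 0.573). In the late line at 78 h and with GA3 at 53 h, zma-MIR397b-p5 averaged 49289 ± 12411 and 44279 ± 22858 CPM, and zma-miR528a-5p 32546 ± 21946 and 24952 ± 10986 CPM (SD, n = 3 each), all above the early line's means at either time.

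**Figure D5:**
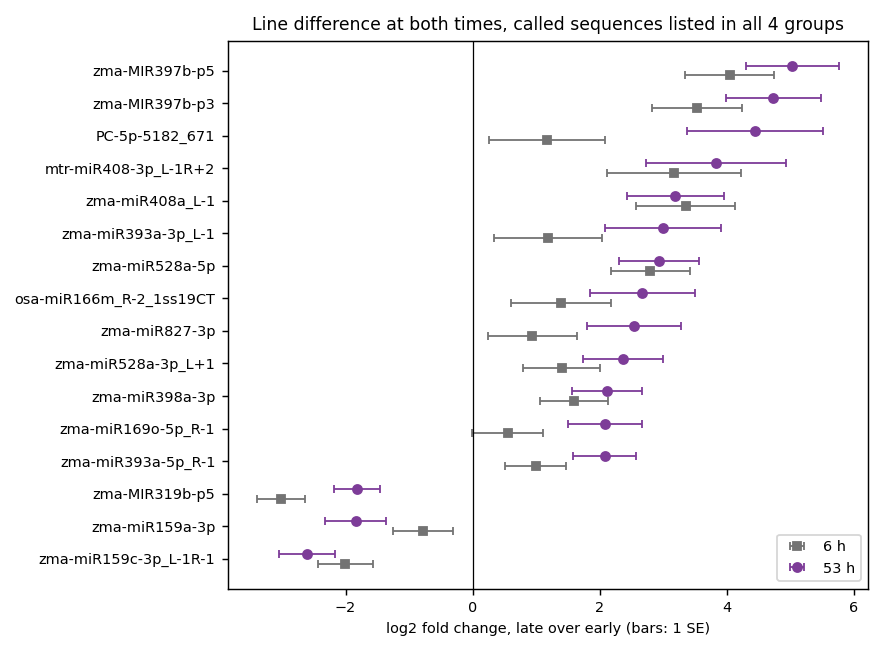
log2 fold change of the late over the early line with 1 SE at 6 h (squares) and 53 h (circles) for the 16 called sequences listed in all 4 groups. All 16 have the same sign at both times, and no change between the times passed the test. The 16 were chosen by their calls at 53 h, and the share of all tested sequences that keep their sign was not counted.

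The degradome, which counts the 5′ ends of cleaved transcripts, came from 1 library with no group, so it shows sites and no line difference. The authors' deposited table gave zma-miR528a-5p a site in Zm00001d021850 with 3852 reads in category 0, where the site holds the most reads of its transcript (p = 0.00593 in that table). The gene is annotated there with electron carrier activity, as is Zm00001d028486, which had 12 reads at its zma-miR408a_L-1 site (p = 0.00977 in that table). zma-MIR397b-p5 had 1 site of category 0 or 1, in Zm00001d052324, annotated with oxidoreductase activity, copper ion binding and lignin breakdown, with 5 reads (p = 0.0533 in the authors' deposited table). zma-miR393a-5p_R-1 had such sites in 1 gene, Zm00001d025268, annotated with auxin-activated signalling, with 7 reads. zma-miR159a-3p had 13 reads in Zm00001d036551, annotated with DNA binding, and zma-miR169o-5p_R-1 had 5 reads in Zm00001d033602, annotated with a CCAAT-binding factor complex, both in that deposited table. The same reads in Zm00001d033602 are given there to zma-miR169a-5p too, and those in Zm00001d028486 to mtr-miR408-3p_L-1R+2. These reads cannot be credited to a single sequence. The deposited table held no site of category 0 or 1 for zma-miR398a-3p, zma-miR827-3p, zma-MIR397b-p3, zma-miR2118b, bdi-MIR444d-p5_1ss2GA or the 4 called candidates. The levels of these messenger RNAs in either line were not analysed here.

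Most of the calls did not hold in every fit: 16 of the 24 were lost when at least 1 of the 6 libraries was left out. Among them were zma-miR528a-5p, zma-miR408a_L-1, zma-miR393a-5p_R-1 and zma-miR159a-3p. Such fits have fewer libraries, so a lost call alone does not show that 1 library carried the difference. The log2 fold change of zma-miR528a-5p was 2.93, and 2.64 and 2.55 without early replicates 1 and 3, where its call was lost. Without early replicate 1 the sequences called were 4 higher and 4 lower, and without early replicate 3 they were 4 higher and 5 lower, while both MIR397b arms, zma-miR397a-5p, zma-MIR408a-p5, zma-miR159c-3p_L-1R-1, bdi-MIR444d-p5_1ss2GA and PC-3p-12284_291 passed under each of the 16 alternatives run. Scaling by library totals gave 6 higher and 19 lower and moved the median of all sequences by -0.93 on the log2 scale, so the split between directions depends on the scaling.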

How the data were processed

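Small RNA libraries were made with a TruSeq small RNA kit from embryos of 5 seeds each, per the labels' protocols. The authors' deposited miRNA table gives expected counts, in which reads of a sequence are divided over precursor entries, and a scaled signal (the deposited counts times a factor per library), which was not tested. The deposited degradome table gives read counts per site, normalized signal, a p-value, an alignment score and an other measure, the category. No source used here names the aligner or genome build. Of the miRNA and degradome tables, 9 and 5176 lines were empty.

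The 782 entries were summed per sequence and rounded. After summing, 88.5% of values were whole (within 0.01), against 38.6% before. Of 536 sequences, 9 with the same values as another in all libraries, and above 0 in at least 2, were merged; 0 columns of samples were left unused. The listing minimum of 8 counts was read from the values (222 values equal it, and 74 sequences have some value below it). Totals at 53 h ran from 42963 to 818814; SE and SD hold the spread between libraries, and the bounds hold only if listing began at 8 counts.

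Counts were tested in edgeR 4.0.16 (R 4.3.3): TMM scaling, filterByExpr with a minimum count of 10, a mean for each of 6 groups, the two-sided quasi-likelihood F test and Benjamini-Hochberg adjustment over 224 sequences or 48 families; SE is the size of the log2 fold change divided by the root of F. CPM use TMM-scaled totals. DESeq2 1.42.0 and limma 3.58.1 were alternatives. Shares were set against each other in an exact permutation test (two-sided), adjusted over 22 shares with a mean of at least 1% for families. The fits were tested on simulated data. Tables and plots were made with matplotlib 3.10.9, scipy 1.17.1, pandas 2.3.3 and Python 3.11.15. Named were every called sequence and family, the 2 most abundant sequences of each list, the 5 most abundant of all, and up to 3 degradome sites of category 0 or 1 per sequence; other names were chosen after their values were seen. The members and lists were chosen with earlier results of these data known. Replicates are labelled as biological; nothing ties equal numbers across groups, and p-values measure the spread between these libraries.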

Additional observations from a re-analysis of the deposited data

Results flagged for a closer look

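The zma-miR528a-5p site of Zm00001d021850 held 3852 degradome reads in the authors' deposited table. It is given here because the degradome library is in no group and enters no comparison. Groups of 3 libraries were not tested for single outlying libraries, and no difference of the line effect between 6 h and 53 h passed its test.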

How the results depend on the processing

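Against 15 sequences higher and 9 lower at 53 h, library totals gave 6 and 19, DESeq2 30 and 20, limma voom 42 and 27, no low-count filter 27 higher (of 527), the 2 groups alone 21 lower (of 130), and zeros set to 4 counts, an alternative chosen after seeing the data, 33 and 26. Leaving out 1 library gave 4 to 18 higher and 4 to 8 lower. The lowest counts came without early replicates 1 (4 and 4) and 3 (4 and 5), and without late replicates 2 and 3 8 were higher. Against 9 copper-protein sequences higher, RLE scaling gave 6, library totals 5 and the 2 groups alone 6, and leaving out 1 library 4 to 10. Against 9 families higher and 1 lower, library totals gave 4 and 8, and the lower count was 2 with RLE scaling, 2 with scaling without miR166, 4 with DESeq2, 7 with voom, 3 without the filter, 4 with the 2 groups alone, 3 with 1 entry per sequence and 5 with zeros set to 4 counts. Leaving out 1 library gave 1 to 10 families higher and 0 to 2 lower, the 1 remaining without early replicate 3 being miR397. For the change of the line difference with time, leaving out 1 library gave 0 to 4 sequences, the 4 without early replicate 2 at 53 h. The causes were not tested. A replicate block gave 12 higher and 7 lower sequences and 6 higher and 1 lower families; same-numbered deviations correlated at 0.115, -0.0603 and 0.181, so the numbers were not taken as pairs. Among shares, the late minus early difference of miR166 (2.12 percentage points) turned to -3.99 with 1 entry per sequence, and the 3p share (-2.11) to 0.778 without miR166 in the denominator. Leaving out 1 library gave -2.17 to 5.30 for miR166, -0.194 to 0.126 for miR169, -1.05 to 2.06 for 21 nt and -0.134 to 0.0807 for 24 nt. Depth limited the scarce sequences: 8 counts were 88.5 CPM in early replicate 3 and 15.7 CPM in late replicate 1.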

Other observations

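Several sequences named after other species lay lower in every late-line library without passing the test. peu-MIR2916-p5_1ss5AG had 1206, 3690 and 1163 CPM in late-line libraries and 4631, 4633 and 6750 CPM in early-line libraries (edgeR adjusted p = 0.158). osa-MIR2118e-p3_2ss13TA19CT, named after a miR2118 precursor of rice, had 138, 187 and 140 CPM in late-line libraries and 647, 381 and 764 CPM in early-line libraries (edgeR adjusted p = 0.12). Both map beside mtr-MIR2592bj-p3_2ss12TC19AT on chromosomes 2 and 10, with the precursors of chromosome 10 starting at 35064454, 35066137 and 35068101. mtr-MIR2592bj-p3_2ss12TC19AT had 17.7, 83.3 and 0 CPM in late-line libraries and 394, 149 and 1516 CPM in early-line libraries (edgeR adjusted p = 0.0855). Whether these sequences come from miRNA precursors was not tested.

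Of all 527 sequences, 7 were listed in the 3 late-line libraries and in no early-line library at 53 h, 10 in no late-line library and in the 3 early-line libraries, and 81 in all 6. PC-5p-8760_411 was lower at 6 h but not among the calls at 53 h, where it had 17.7, 56.5 and 0 CPM in late-line libraries and 234, 279 and 476 CPM in early-line libraries (edgeR adjusted p = 0.0938). PC-5p-5182_671 was the 1 unnamed candidate higher at 53 h, with 587, 324 and 120 CPM in late-line libraries and 0, 41.8 and 0 CPM in early-line libraries (edgeR adjusted p = 0.0133).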
